A study of Mus musculus with 2 samples.

Results

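The myosin heavy chain genes were examined in mouse myoblasts of skeletal muscle, cells that divide and later fuse into fibres, which carried or lacked Foxj3, a transcription factor gene of the forkhead family. The set holds 10 genes of 18193 with a named probe set on the array: developmental Myh3 and Myh8, slow or cardiac Myh7 and Myh6, adult fast Myh1, Myh2 and Myh4, smooth muscle Myh11, and nonmuscle Myh9 and Myh10. Members were all probe sets that the platform annotation gives to these genes, 20 probe sets of 1 gene each, plus 2 probe sets annotated to both Myh7 and Myh6. The series holds 1 culture of wild-type cells (WT) and 1 culture of cells without Foxj3 (KO, knockout), each hybridised to 1 Mouse430_2 array. Both were skeletal myoblasts at passage 3, kept in DMEM with 20% fetal bovine serum and harvested at 80% confluency. The strain, age and sex of the animals, the kind of Foxj3 allele and whether a culture was 1 clone or a pool are not given in the sources used here. With 1 array in each group no test was possible, and every difference below describes these 2 arrays and has no replicate check.

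Myosin heavy chains are the motor subunits of the thick filament: a pair of heavy chains with their light chains binds actin and hydrolyses ATP. Each isoform has its own gene, and muscle fibres exchange one isoform for another as they mature. The embryonic (Myh3) and perinatal (Myh8) isoforms come first in new fibres, followed by slow (Myh7) or fast (Myh2, Myh1, Myh4) isoforms in adult muscle. Dividing myoblasts rely on nonmuscle myosin II, whose heavy chains Myh9 and Myh10 serve in cell shape, migration and cell division, and sarcomeric isoforms appear when the cells leave the cell cycle and differentiate.

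The myoblast label was checked against 12 marker genes, all of which were over the detection floor on at least 1 array. Signals of different probe sets cannot be compared with each other, so each value below is set against the same probe set on the other array, with WT always given first. The floor, 47.04, is the 40th percentile of all deposited signals of both arrays and stands for the level under which a signal is not read; a gene is called measured if it passes the floor in at least 1 culture. Pax7 (513 in WT and 627 in KO) and Myf5 (731 and 724) were over the floor in both cultures. By the brightest probe set of each gene, the 12 markers had a median log2 ratio of 0.04. By this measure 0 were lower by 2-fold or more and 2 were higher by as much. The higher ones were Myod1 (631 and 1751) and the syndecan gene Sdc4, which read 468 and 2149 by one probe set and 276 and 322 by the other. Des, which encodes desmin, read 2024 and 1091, while a further probe set had a log2 ratio of opposite sign (0.82). Vcam1 read 687 and 730, with log2 ratios of 2.97 and 2.59 at its further probe sets. The other probe sets of Pax7 and Met had 1.27 and 2.21 (a bound). Ncam1 read 423 and 371, with -1.35 and 1.02 among its 6 further probe sets. Averaged over measured probe sets, 4 markers were at least 2-fold higher and 0 lower, with a median of 0.38. Foxj3 itself had 3 probe sets, which did not go one way: its brightest read 496 and 77.3, another 79.7 and 99.4, and the third was under the floor throughout. Over all 14597 measured genes the median log2 ratio of KO over WT was -0.06. A ratio of at least 2-fold was reached by 6.72% of the genes (981) in the lower direction and by 3.73% (544) in the higher direction.

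The reference sequence just before the start of the 4 sarcomeric genes with lower signal in the KO library is shown first, because these members had lower signal together. The sequences are from RefSeq (GRCm38.p6), 250 bases up to the annotated start, 5′ to 3′ on the strand of the gene. Capitals mark E-box letters CANNTG, a MEF2 site and a TATA box TATAAA on either strand.
Myh3 (chr11:67078050-67078299, plus strand): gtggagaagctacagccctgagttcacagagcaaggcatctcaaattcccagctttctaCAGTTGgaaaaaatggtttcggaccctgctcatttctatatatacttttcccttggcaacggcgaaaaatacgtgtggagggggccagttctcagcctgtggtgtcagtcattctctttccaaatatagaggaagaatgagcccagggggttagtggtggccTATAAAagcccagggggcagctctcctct
Myh8 (chr11:67276874-67277123, plus strand): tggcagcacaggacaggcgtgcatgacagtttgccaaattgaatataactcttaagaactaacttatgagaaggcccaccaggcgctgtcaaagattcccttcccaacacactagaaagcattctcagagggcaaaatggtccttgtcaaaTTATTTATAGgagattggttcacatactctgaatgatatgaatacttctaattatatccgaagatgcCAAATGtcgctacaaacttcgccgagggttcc
Myh7 (chr14:54994627-54994876, minus strand): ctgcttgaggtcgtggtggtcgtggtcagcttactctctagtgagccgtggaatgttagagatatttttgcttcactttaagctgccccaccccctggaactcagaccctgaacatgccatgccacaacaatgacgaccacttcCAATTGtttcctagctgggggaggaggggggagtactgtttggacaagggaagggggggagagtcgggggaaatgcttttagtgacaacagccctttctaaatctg
Myh1 (chr11:67199852-67200101, plus strand): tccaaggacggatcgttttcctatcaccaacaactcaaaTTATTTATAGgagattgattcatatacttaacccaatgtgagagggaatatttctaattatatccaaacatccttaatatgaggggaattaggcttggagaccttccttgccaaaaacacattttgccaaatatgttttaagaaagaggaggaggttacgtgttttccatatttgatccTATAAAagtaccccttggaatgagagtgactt
For Myh7 the more upstream of its 2 annotated starts was used.

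The windows of Myh8, Myh1 and Myh4 hold a match to the MEF2 site, the binding sequence of the MEF2 factors of muscle differentiation, at 99, 211 and 182 bases before the start. Such a match occurs in 3.19% of 32851 windows of 300 bases (250 before and 50 after a start) over all genes. In all 3 genes the match overlaps TATAAA on the opposite strand. A stretch of 20 bases around the match was the same in Myh8 and Myh1, and 2 of the 32851 windows held it in full, those of these genes. The stretches are set side by side, with the MEF2 site match in capitals.
Myh8 (chr11:67277021-67277040, plus strand): caaaTTATTTATAGgagatt
Myh1 (chr11:67199887-67199906, plus strand): caaaTTATTTATAGgagatt
Myh4 (chr11:67237626-67237645, plus strand): caaaTTATTTATAGatgaca
Myh2 (chr11:67170855-67170874, plus strand): caaattatccataggagatt
Counted from 1 at the 5′ end of the Myh8 stretch, Myh2 differs by T9C and T10C, within the site, and has no match there. Myh4 differs by G15A, A16T, T19C and T20A, after the site. No match lay in the windows of Myh3, Myh7, Myh6, Myh2, Myh9 and Myh10. At least 18 of the 20 bases were the same in 4 windows, those of Myh1, Myh2, Myh8 and the olfactory receptor gene Olfr490. At least 16, the number in Myh4, were the same in 17 windows. The stretch was chosen after the matches were seen. The E-box letters CANNTG were found in 7 of the 9 members with a window and in 72.3% of all windows, so their presence sets nothing apart. TATAAA on either strand was found in 7 of the 9 members and in 13.6% of all windows. On the strand of the gene it was found in 5 members, among them Myh3, Myh1 and Myh4 at 29, 32 and 31 bases before the start. In the others, Myh6 and Myh2, it lay after the start. TATAAA was thus also found in genes under the floor. The letters TGTTTAC or TAAACA, taken as a forkhead core, were found in 1 member, Myh9 on the strand opposite the gene and overlapping the TATA box letters there. Of all windows, 13.4% hold TAAACA and 3.65% hold TGTTTAC. The letters CAGCTG were found in Myh4 and Myh10 (16.3% of all windows), a CArG box in Myh4 (1.63%) and the MCAT letters CATTCC in 5 members (14.7%). A match is a description of letters and does not show binding.

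Sarcomeric myosin heavy chains of the developmental and slow classes were lower in the KO library. Myh3, the embryonic isoform, read 4001 in WT and 404 in KO. Myh3 was therefore 9.89-fold lower (log2 ratio -3.31) and still well over the floor of 47.04 in both cultures. Myh8, the perinatal isoform, read 555 in WT and 20.6 in KO. The KO value lay under the floor, so the ratio is a bound, at least 11.8-fold lower. Both developmental genes were thus over the floor in WT myoblasts and lower in KO myoblasts, each by 1 probe set with no other to compare. In bulk RNA, fewer differentiated cells in a culture and less myosin RNA per cell cannot be told apart.

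Myh7, the slow isoform of skeletal muscle and of the heart ventricle, read 1156 in WT and 89.3 in KO, 12.9-fold lower (log2 ratio -3.69). A probe set annotated to both Myh7 and its chromosomal neighbour Myh6 read 515 and 31.4, at least 10.95-fold lower. The second shared probe set was under the floor on both arrays, at 18.9 and 1.96. Myh6, the cardiac alpha isoform, had 2 probe sets of its own, which read 11.7 and 9.93, and 23.55 and 27.7, all under the floor. The shared signal is annotated from the same source sequence as the Myh7 probe set, and the probe sets of Myh6 alone gave no signal over the floor in either culture. Counting the shared probe sets for both genes, an alternative chosen after seeing the data, would add Myh6 to the lower genes (log2 ratio -3.45 as a bound).

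Of the adult fast isoforms Myh1 was measured, while Myh2 and Myh4 were under the floor in both cultures. Myh1 (the IIx isoform) read 290.3 in WT and 9.87 in KO by 1427868_x_at, at least 6.17-fold lower. A second probe set, 1427520_a_at, read 236 and 10.7, at least 5.01-fold lower. The third, 1452465_at, gave 30.4 and 24.0, under the floor in both cultures. Names in _x_at mark probes that may also match other transcripts, and without probe sets named _s_at, _x_at or _a_at Myh1 was not measured at all. Myh2 (the IIa isoform) read 40.85 and 43.65, and Myh4 (the IIb isoform) read 41.7 and 7.45 by one probe set and 11.8 and 19.65 by the other. No ratio is given for these genes. Myhas, a noncoding antisense RNA gene between Myh1 and Myh4, read 190.5 and 153.7 by a probe set from the same source sequence as 1427868_x_at of Myh1. The 2 probe sets from this sequence thus differed in ratio, with log2 values of -0.31 for Myhas and -2.63 as a bound for Myh1.

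Myh11, the smooth muscle isoform, was lower as well. It read 338 in WT and 84.8 in KO, 3.99-fold lower (log2 ratio -1.99). Its other probe set, from the same source sequence, was under the floor on both arrays at 43.9 and 24.5. Of 11 smooth muscle and pericyte markers 7 were measured, 2 at least 2-fold lower and 1 at least 2-fold higher, with a median log2 ratio of -0.25. The lower ones were Synpo2 (synaptopodin 2), at 560.1 and 112.6 by the brightest of its probe sets, with log2 ratios of 0.28 and -0.20 at the further ones, and Smtn (smoothelin), at 152 and 72.7. The higher one was Tagln (transgelin), at 626 and 1749. Acta2, smooth muscle actin, read 6049 and 5081, and calponin Cnn1 and Lmod1 were under the floor in both cultures.

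The nonmuscle isoforms were level or higher by their brightest probe sets. Myh10 (nonmuscle IIB) read 581 in WT and 571 in KO, a log2 ratio of -0.02, while its other probe set was under the floor at 21.0 and 39.0. Myh9 (nonmuscle IIA) had 5 measured probe sets with different answers. The brightest, 1420172_at, read 2411 and 5587, which is 2.32-fold higher in the KO library, and 1420171_s_at read 1743 and 6883, which is 3.95-fold higher. Of the other 3, 1417472_at read 389.6 and 518 (log2 ratio 0.41), 1440708_at 52.2 and 58.1 (0.15), and 1420170_at 385 and 283 (-0.44). Thus 4 of the 5 were above 0 and 2 reached 2-fold. Their mean log2 ratio was 0.66 with an SD of 0.95 between probe sets, so the call of 2-fold higher rests on a pair of them. The signs of all 5 were the same under quantile, median and loess scaling.

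**Figure D1:**
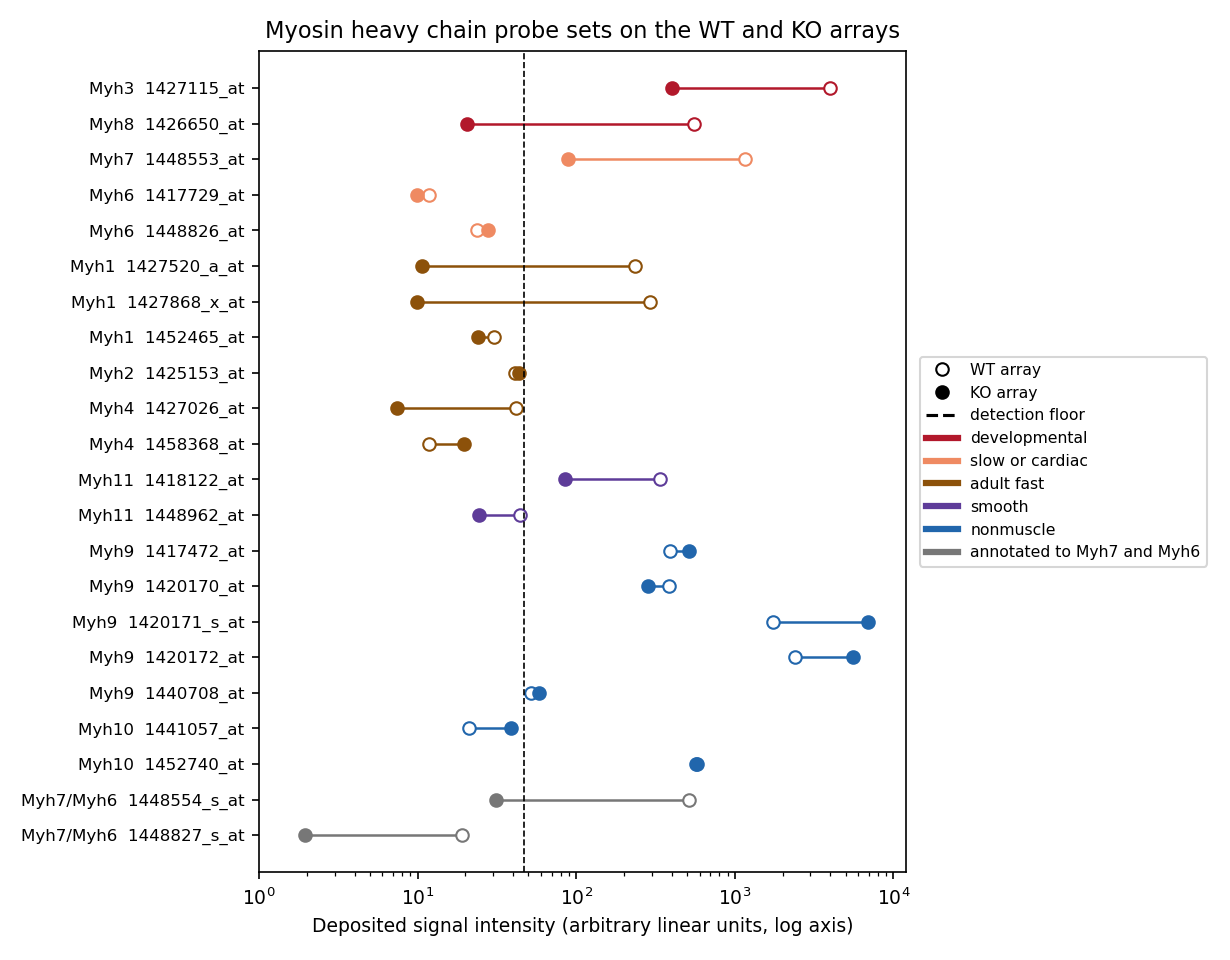
Deposited signal of each of the 22 myosin heavy chain probe sets on the WT array (open circle) and the KO array (filled circle), on a log axis in arbitrary linear units, with 1 array per group and no error bars. The dashed line is the floor of 47.04; Myh3, Myh7 and Myh11 stayed over it on both arrays by their brightest probe set, Myh8 and Myh1 were over it on the WT array alone, and the 2 brightest Myh9 probe sets lie to the right on the KO array.

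Over the set, 7 of the 10 genes were measured, that is over the floor on at least 1 array, and Myh6, Myh2 and Myh4 were not. At least 2-fold lower in the KO library were 5 genes (Myh3, Myh8, Myh7, Myh1 and Myh11) and at least 2-fold higher was 1 (Myh9), where 6.72% and 3.73% of all measured genes were. A gene over the floor through the WT array alone, as Myh8 and Myh1 were, had to be lower, so the count is a description and not support for a shift. By probe set, 12 of the 20 with 1 gene were measured: 6 were at least 2-fold lower, 2 at least 2-fold higher and 4 under 2-fold. None was over the floor on the KO array alone, and 3 were so on the WT array alone. Of all 45037 probe sets, 59.2% passed the floor in WT cells and 60.8% in KO cells. Shares of all probe sets past 2-fold, or over the floor in a single culture, are not given here. The counts by probe set are therefore a description as well. The median log2 ratio of the 5 measured muscle isoforms was -3.31 (2 of them at their bound), that of the 2 nonmuscle isoforms was 0.59, and that of all measured genes -0.06. As a measure of technical spread, log2 ratios of different probe sets of 1 gene had an SD of 0.66 over 4752 genes with at least 2 probe sets that passed the floor in both cultures. This SD leaves out differences between cultures and animals.

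**Figure D2:**
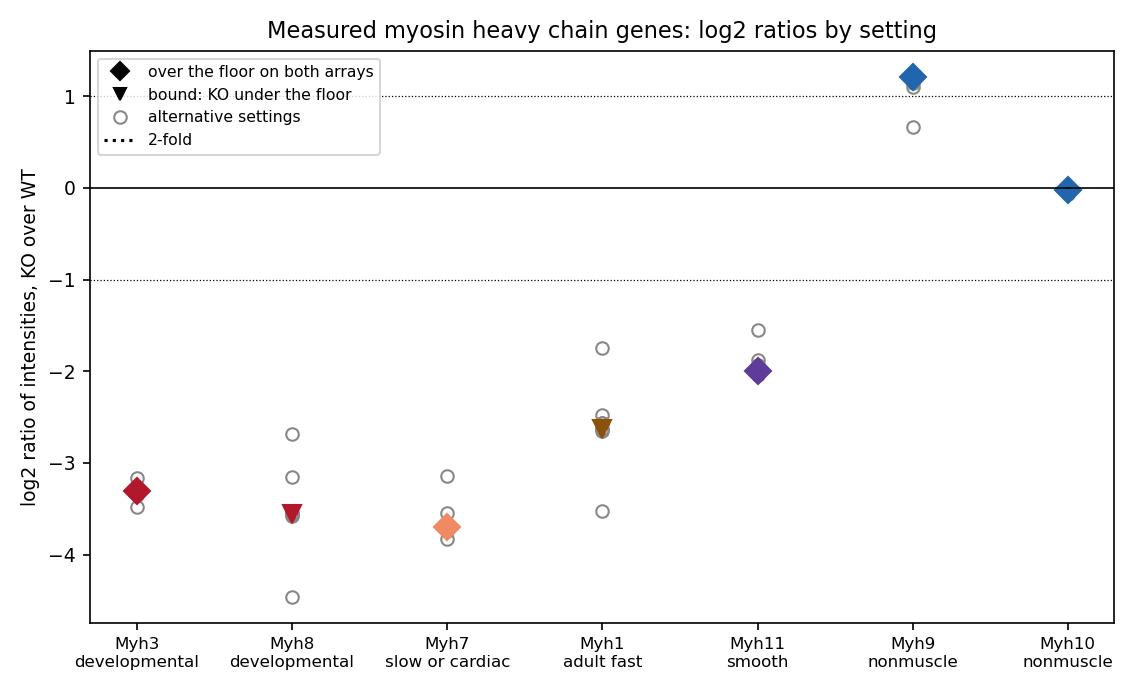
Log2 ratio of KO over WT for the 7 measured genes (diamonds; triangles are bounds with the KO value under the floor) and the same ratio under each alternative setting (open circles); dotted lines mark 2-fold. The 5 muscle isoforms lie below the lower line under each setting that measured them, Myh9 lies between 0.66 and 1.21, and Myh10 between -0.07 and -0.02.

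Among light chains, which bind the neck of the heavy chain, most measured sarcomeric forms were lower in the KO library and the nonmuscle forms were under 2-fold. Of 7 sarcomeric light chain genes 5 were measured and 4 were at least 2-fold lower, with a median log2 ratio of -2.10. Myl4, the embryonic and atrial essential light chain, read 4867 in WT and 532 in KO. Mylpf, the fast regulatory light chain, read 6529 and 1455, and Myl1, the fast essential light chain, 2124 and 712. Myl3, the slow and ventricular essential light chain, read 275 and 63.9 by its brightest probe set, while its _x_at probe set read 98.4 and 177. Without probe sets named _s_at, _x_at or _a_at, 2 sarcomeric light chain genes were at least 2-fold lower. Of 5 smooth and nonmuscle light chain genes 4 were measured and 0 reached 2-fold in either direction, with a median of 0.15. Myl12a read 4991 and 4324, and Myl9 355 and 513. The difference between these groups of light chains was not tested.

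Several genes whose proteins hold myosin in the thick filament were lower in the KO library. Of 10 listed thick filament and M-band genes 7 were measured, 5 at least 2-fold lower and 1 at least 2-fold higher, with a median log2 ratio of -2.20. The M-band genes Myom1 (455 and 60.7), Myom2 (750.3 and 106.7) and Myom3 (268 and 31.2, under the floor on the KO array) were lower, as was the myosin binding protein gene Mybph (1220 and 265). All 3 probe sets of Myom2 were at least 2-fold lower. The member in the other direction was Mybphl, a myosin binding protein of the atria, at 105 and 249.6 by its single measured probe set. Of 9 genes of myosin folding, assembly and turnover 7 were measured. By their brightest probe sets 3 were at least 2-fold lower and 0 at least 2-fold higher, with a median of -0.76. Trim54 (306 and 40.8) and Trim63 (175 and 23.7), ubiquitin ligases of the sarcomere, were lower as bounds. Smyd1, which encodes a methyltransferase that acts with the myosin chaperone, read 189 and 39.5 by the brightest of its probe sets, but the remaining 3 measured ones had ratios above 0. Unc45b, the muscle myosin chaperone gene, read 265 and 239.6. Hsp90aa1, another chaperone gene, read 4306 and 4756 by its brightest probe set. Another of its probe sets read 320 and 2148, which is 6.71-fold higher, and 1 of its 4 further ones had the opposite sign. Averaged over measured probe sets, 2 genes of this list were at least 2-fold lower and 0 higher, with a median of -0.14.

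Unconventional myosins and genes of myosin phosphorylation and the RhoA pathway had medians near that of all genes. Myh14, another nonmuscle heavy chain gene, was higher in the KO library. Of 24 unconventional myosins, which carry cargo or tension on actin as single motors or dimers, 17 were measured. The median log2 ratio was 0.01, with Myo18a at least 2-fold lower (379 and 173) and Myo1g at least 2-fold higher (120 and 312). Of 4 other conventional heavy chain genes 2 were measured, with a median of 0.81. Myh14 (nonmuscle IIC) read 81.4 and 217, which is 2.67-fold higher, and Myh7b, a slow-type isoform of heart and muscle, 112 and 128. Of 19 genes of myosin phosphorylation and the RhoA pathway 18 were measured, 1 at least 2-fold lower and 1 at least 2-fold higher, with a median of -0.0007. Mylk4, a myosin light chain kinase gene of muscle, was the lower one (264 and 30.4, a bound). Arhgef2, an exchange factor that activates RhoA, was the higher one (741 and 1699 by its brightest probe set). Its further probe sets were under 2-fold, with log2 ratios of 0.88 and 0.12. Averaged over measured probe sets, 0 genes of this list were at least 2-fold higher.

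**Figure D3:**
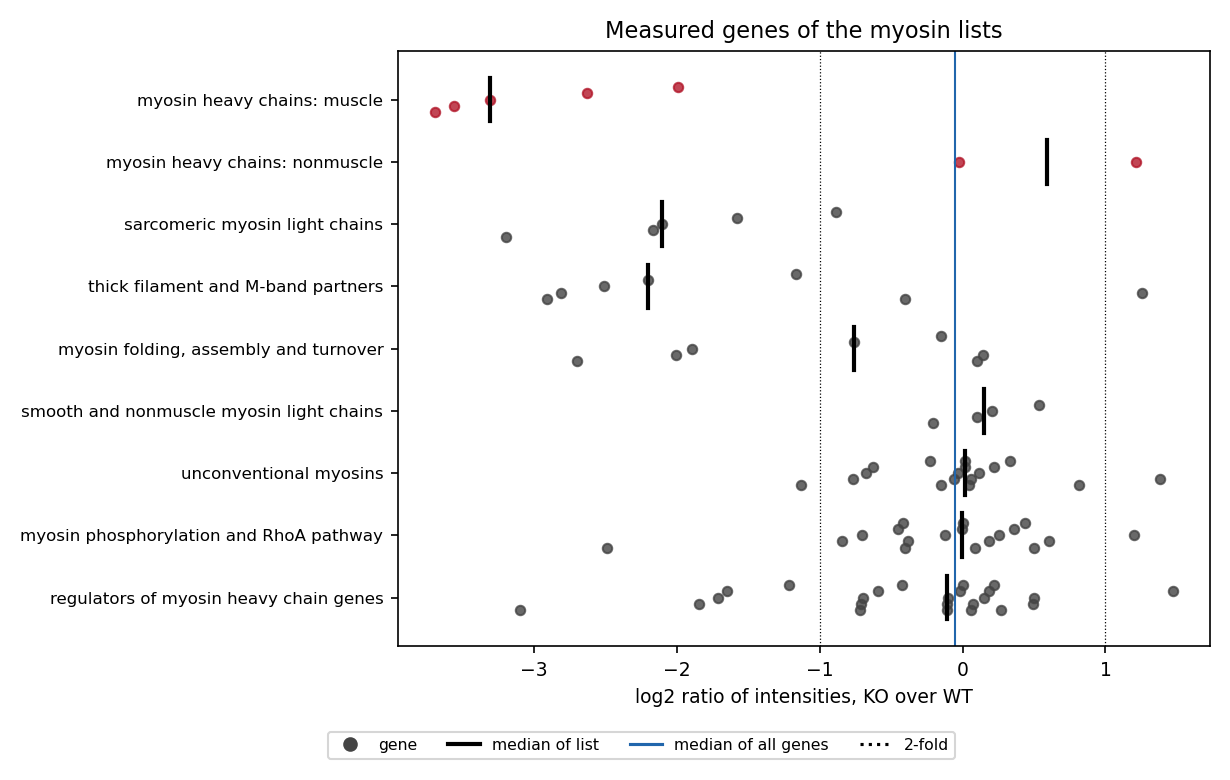
Log2 ratio of KO over WT for each measured gene (points) of the muscle and nonmuscle myosin heavy chains (red) and of 7 of the gene lists (grey), with the list median (black bar), the median of all genes at -0.06 (blue line) and 2-fold (dotted). Medians of the muscle heavy chains, sarcomeric light chains and thick filament genes lie at -3.31, -2.10 and -2.20, and the other medians drawn lie between -0.76 and 0.59.

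Among regulators known to act on myosin heavy chain genes, 24 of 27 were measured, 5 at least 2-fold lower and 1 at least 2-fold higher, with a median log2 ratio of -0.11. The lower ones by their brightest probe set were Mef2c (404 and 42.3, a bound), Myog, which encodes myogenin (1754 and 488), Ppargc1a, a coactivator of slow fibre genes (169 and 51.4, while 1 of its 3 further probe sets had the opposite sign), Mef2d (512 and 163, while 1 of its 2 further probe sets was above 0) and the T-box gene Tbx15 (352 and 152). The higher one was Myod1. Tbx15 and, in this list, Myod1 fall outside the 4 largest and are named to complete the count. Unlike Ppargc1a, the fibre choice genes Prox1 (73.05 and 76.7) and Nfatc1 (235 and 274) were under 2-fold. Sox6, another such gene (45.1 and 66.5), was under the floor in WT, so its ratio is a bound, at least 1.41-fold higher. Averaged over measured probe sets, 3 regulators were at least 2-fold lower.

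The ratios were also read along the chromosomes. In the RefSeq gene table (GRCm38.p6, used for gene order) Myh3, Myh2, Myh1, Myh4 and Myh8 follow each other on chromosome 11, Myh6 and Myh7 lie next to each other on chromosome 14, Myh9 lies on chromosome 15, Myh11 on chromosome 16 and Myh10 elsewhere on chromosome 11. Genes without a named probe set, among them the heavy chain gene Myh13, were left out of this order. Among the 5 member genes of the cluster, Myh3, Myh1 and Myh8 had lower signal. Myh2 and Myh4, each between a pair of these, were under the floor. The nearest 3 genes with a probe set on each side of every member gave 32 other genes, of which 23 were measured, 2 at least 2-fold lower and 1 at least 2-fold higher, with a median of 0.08. Gas7, the next gene with a probe set after Myh8, read 253 and 65.1, and 127 and 83.6 by its other probe set. Ngdn, the neighbour after Myh7, read 505 and 195, and 238 and 129 by its other probe set. On the far side of Myh3, Sco1 read 76.9 and 94.5 and Adprm 186 and 159. Tmem238l, the third gene on that side, read 48.9 and 99.9. By their brightest probe sets, the 20 measured neighbours under 2-fold had log2 ratios between -0.50 and 0.62. Further probe sets of Efs (-1.61) and Abcc1 (1.12) passed 2-fold.

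**Figure D4:**
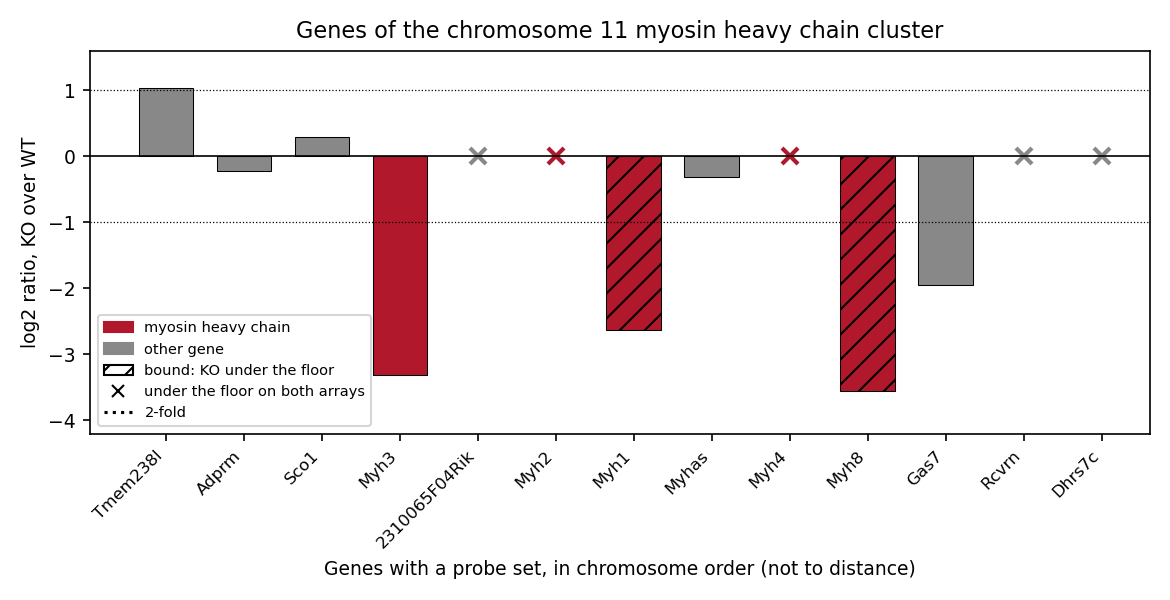
Log2 ratio of KO over WT for the 13 genes with a probe set across the myosin heavy chain cluster of chromosome 11, in chromosome order without distances; hatched bars are bounds and crosses are genes under the floor on both arrays, which have no ratio. Myh3, Myh1 and Myh8 stand at -3.31, -2.63 and -3.56, Gas7 at -1.96, and Myhas, between Myh1 and Myh4, at -0.31.

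Markers of other cell types that could add myosin RNA were read beside these results, and their part in them was not tested. Of 13 cardiac markers 8 were measured and 3 were at least 2-fold lower, Tnni3 (24578 and 92.6), Tnnt2 (2301 and 479) and Actc1 (4191 and 1005). Embryonic skeletal muscle also uses Actc1, and how far the other markers are particular to the heart was not examined here. The cardiac median log2 ratio of -0.50 ranged from -2.06 to -0.10 over the alternative settings. The natriuretic peptide gene Nppa and the atrial light chain Myl7 were under the floor in both cultures, as were Nppb and Ryr2. The cardiac transcription factor genes passed the floor by their brightest probe sets. Nkx2-5 read 62.0 and 64.6, Gata4 55.1 and 51.3, Tbx20 73.0 and 76.0, and Tbx5 59.0 and 116. The further probe set of Tbx20 read 48.6 and 38.7. Medians of all probe sets were 62.03 (WT) and 63.94 (KO), so passing the floor alone does not show that these genes were expressed. A sum adds probe sets that respond unlike each other and is read only between the arrays. The summed signal of measured cardiac markers was 31418 in WT and 1937 in KO, most of it from the single Tnni3 probe set. The summed signals of measured myoblast markers were 7314 and 9082, of smooth muscle and pericyte markers 9533 and 8243 (7 of 11 measured), of fibroblast markers 1624 and 1861 (6 of 10), of endothelial markers 184 and 259 (3 of 8), and of leukocyte markers 762 and 657 (5 of 8). Past 2-fold in the last 3 lists were Tcf7l2 (298 and 139, while its 3 further measured probe sets were above 0) and Esam (45.1 and 94.7, a bound). The largest differences among leukocyte markers were Spi1 (123 and 62.0) and Cd14 (83.2 and 36.0, a bound). The defining genes Pecam1 of endothelium and Ptprc of leukocytes were under the floor on both arrays. Other genes of these lists passed it on both, among them Kdr of endothelium (110 and 101) and Adgre1 of leukocytes (313 and 210). Csf1r of leukocytes read 171 and 276 by its brightest probe set, with log2 ratios of -0.35 and 1.11 at the further ones. The lists thus do not show that these cell types were absent.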

How the data were processed

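RNA of 1 WT and 1 KO culture was labelled with biotin from 10 ug of total RNA and hybridised to 1 array each, per the labels' protocols. The deposited table gives an intensity on a linear scale for each of 45037 probe sets and each array. How the authors summarised and scaled the probes is not given in the sources used here. Both arrays shared 40 of 42 fields of the deposited run records, a format of other text per the file headers, and differed in fluidics module and scan time. All value columns belonged to a sample. Medians were 62.03 (WT) and 63.94 (KO), so values were used as deposited. The number of arrays limits the precision.

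Probe sets were named by the platform annotation, with current symbols taken through Entrez identifiers from the RefSeq table. By the annotation 34945 had 1 symbol, 932 several and 9160 none. For 34741 of those with 1 symbol the identifier was found in the RefSeq table. How many symbols changed was not counted. The floor was the 40th percentile of both arrays pooled, and lower values were raised to it before taking log2. For each gene the probe set with the greatest log2 signal, averaged over the arrays, was used, and a gene was measured where that signal passed the floor in WT or KO. Ratios are KO over WT. A ratio of 2-fold served as the threshold, and no p-value was computed.

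The members and the 14 gene lists were chosen with earlier results of these data known. Named genes were all members, Foxj3, in each list up to 4 measured genes past 2-fold by size of ratio, or the 2 largest where none was, and the neighbours, given by a range where under 2-fold except Sco1, Adprm and Myhas. Pax7, Myf5, Des, Vcam1, Met, Ncam1, Acta2, Cnn1, Lmod1, Unc45b, Hsp90aa1, Mybphl, Myh7b, Tbx15, Sox6, Prox1, Nfatc1, Nppa, Nppb, Ryr2, Myl7, Nkx2-5, Gata4, Tbx5, Tbx20, Pecam1 and Ptprc were named after their values were seen. So were Kdr, Adgre1, Csf1r, Myh13 and the neighbours Efs and Abcc1. The planned listing of genes nearest in level to a member was computed but is not given, since levels of different probe sets cannot be compared. Promoter windows came from RefSeq (GRCm38.p6). Calculations used Python 3.11.15 with numpy 2.4.6 and pandas 2.3.3, statsmodels 0.14.6 for loess scaling (span 0.3) and matplotlib 3.10.9, and were tested on simulated data with 200 changed genes. The alternatives were quantile, median and loess scaling, floors at the 20th and 60th percentiles, addition of the floor to every value, the mean over measured probe sets, leaving out _s_at, _x_at and _a_at probe sets, and thresholds of 1.5-fold and 3-fold; 1 more, which counts shared probe sets for both genes, was chosen after seeing the data.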

Additional observations from a re-analysis of the deposited data

How the results depend on the processing

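The count of 5 genes at least 2-fold lower was kept, or changed by at most 1, under every alternative, and Myh3, Myh7, Myh8 and Myh11 kept their direction under all of them; Myh1 did so wherever it was measured. The log2 ratio of Myh3 ranged from -3.48 to -3.16, of Myh7 from -3.83 to -3.14 and of Myh11 from -2.04 to -1.55. The bounds moved with the floor: at the 20th percentile (25.19) Myh8 stood at -4.46 and Myh1 at -3.53, at the 60th (86.4) they stood at -2.68 and -1.75. At the 20th percentile Myh2 (0.10), Myh4 (-0.73) and Myh6 (0.14) counted as measured, which moved the median of the muscle isoforms to -2.65. Myh9 was the single gene at least 2-fold higher; the count was 0 with the mean over probe sets (log2 ratio 0.66) and at 3-fold. Over all genes, lower and higher counts were 485 and 313 with the pseudocount, 626 and 443 with the mean over probe sets, 2811 and 1866 at 1.5-fold, 221 and 109 at 3-fold, 1241 and 873 with the floor at the 20th percentile and 680 and 353 at the 60th. Of 119 comparisons of the main values with an alternative, 103 stayed within a limit and 16 moved by more. The limit was the spread between probe sets of a gene, or 1.5 times for a count. For the gene lists these were 338 and 54 of 392. A change of sign was counted as a reversal only for log2 values of at least 1 in size, and 0 were found. Some smaller list medians changed sign. That of smooth muscle and pericyte markers went from -0.25 to 0.09 without _s_at, _x_at and _a_at probe sets. Lower genes were 64.3% of those at least 2-fold different, 58.7% with quantile, 69.2% with median and 56.9% with loess scaling. No paired analysis was possible because each group has 1 sample. Signals under the floor, as of Myh2, Myh4 and Myh6, give no ratio.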
